A study of Mus musculus with 16 samples.

Results

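The calcium, calcineurin and NFAT genes of lung ILC2s were examined by bulk mRNA-Seq in 16 libraries from WT and *Pac1-/-* mice. The set was fixed by name and not by level: it consists of *Nfatc1*, *Nfatc2*, *Nfatc3*, *Rcan1*, *Ppp3ca*, *Ppp3cb*, *Orai1* and *Stim1*, which are 8 of the 51912 genes in the count table. *Pac1* is the older name of *Dusp2*, a phosphatase of MAP kinases, and the knockout libraries carry the label Pac1-KO. ILC2s were sorted from the lungs of mice on a C57BL/6J background aged 6 to 8 weeks, expanded for 1 to 2 weeks with IL-2 and IL-7, and then cultured for 4 hours under 1 of 4 conditions. These were IL-7 alone, IL-7 plus IL-33 (the IL-33 libraries), IL-7 plus IL-33 and CGRP (the CGRP libraries), or IL-7 plus IL-33 and NMU (the NMU libraries), so IL-7 was present in every culture and IL-33 in all but the first. IL-7 and IL-33 were used at 100 ng/mL and the neuropeptides at 500 ng/mL. The 2 genotypes under 4 conditions gave 8 groups with 2 libraries each, made from lysates of about 500 cells. Nothing in the labels or methods states whether the 2 libraries of a group came from separate mice or cultures, so *P* values measure the spread between these libraries, which may be technical. Because the libraries were made from bulk lysates, a lower level can mean fewer cells that express a gene or less RNA per cell, and these cannot be told apart.

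As background, a rise of cytosolic calcium reaches the nucleus of lymphocytes through the NFAT proteins. When calcium leaves the endoplasmic reticulum, STIM1 senses the loss and opens the plasma membrane channel ORAI1, and the calcium that enters binds calmodulin and switches on the phosphatase calcineurin. Calcineurin removes phosphates from NFAT proteins, which then enter the nucleus and act on cytokine genes, and RCAN1 binds and restrains calcineurin. NMU, a neuropeptide that excites ILC2s, acts on the receptor NMUR1, which couples to phospholipase C and calcium. CGRP, another neuropeptide, acts on a receptor that couples mainly to cAMP. The comparison of these genes across treatments therefore asks whether the transcripts of the calcium branch differed with a ligand whose receptor couples to calcium. The assay measured transcripts and not calcium, phosphatase activity or the location of NFAT proteins.

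Total counts ranged from 6764992 to 15963357 per library (median 11071278), and 3 counts, taken as the floor of detection, were worth 0.188 to 0.443 CPM (counts in a library scaled to a total of 1000000), counting error only. The ILC2 markers *Gata3* (495 to 1118 CPM) and *Il1rl1* (516 to 1302 CPM) were high in every library. Genes of other cells marked some groups. Of the 5 T cell markers, *Cd8a* had 0 counts in all 16 libraries and *Cd4* in 15, *Cd3g* (29.8 to 255 CPM) and *Cd3d* (2.39 to 103 CPM) were detected in all 16, and their sum was 237 to 337 CPM in the IL-7 libraries and at most 173 CPM elsewhere. The mast cell gene *Cpa3* measured 150 to 174 CPM in the WT CGRP libraries and at most 83.6 CPM elsewhere, while *Mcpt4* had 0 counts in 15 libraries. The B cell markers *Cd79a* and *Ms4a1* were both detected in the 2 *Pac1-/-* CGRP libraries, where their summed level was 92.4 to 106 CPM, against at most 16.2 CPM elsewhere. The 4 lung epithelial markers summed to 188 to 331 CPM in the WT NMU libraries and to at most 83.2 CPM elsewhere, and the 4 macrophage markers summed to 28.8 to 112 CPM there and to at most 8.0 CPM elsewhere. The targeted gene *Dusp2* had 57 counts in 1 WT IL-7 library, 29 counts in 1 WT NMU library and 0 in the other 14, so it does not check the labels of the other 6 WT libraries. The part of these differences in the results was not tested, and the T cell markers differ in every comparison with IL-7 and *Cpa3* in those with WT CGRP libraries. Values without the *Pac1-/-* CGRP and WT NMU libraries are given where they change a result.

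The DNA before the start sites of the members was searched for the short run of letters that NFAT proteins bind, as a description only. Sequences of 250 bases before the start were taken from RefSeq (GRCm38.p6, the build of mm10), and 9 windows of 6 members were found. *Rcan1* is shown because its 2 start sites are known to be separately controlled, and *Orai1* and *Stim1* because they had the largest fold changes with a treatment among the members detected in every library. Capitals mark the letters GGAAA or, for the other strand, TTTCC, the core that NFAT proteins bind. This core contains GGAA, which is also the core bound by ETS factors.
*Rcan1*, upstream start, chr16:92466170-92466419, minus strand: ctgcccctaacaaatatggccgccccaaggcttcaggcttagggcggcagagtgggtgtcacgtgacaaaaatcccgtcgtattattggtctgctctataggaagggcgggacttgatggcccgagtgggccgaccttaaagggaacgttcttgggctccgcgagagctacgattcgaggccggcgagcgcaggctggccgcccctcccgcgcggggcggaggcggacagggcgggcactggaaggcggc
*Rcan1*, downstream start, chr16:92400079-92400328, minus strand: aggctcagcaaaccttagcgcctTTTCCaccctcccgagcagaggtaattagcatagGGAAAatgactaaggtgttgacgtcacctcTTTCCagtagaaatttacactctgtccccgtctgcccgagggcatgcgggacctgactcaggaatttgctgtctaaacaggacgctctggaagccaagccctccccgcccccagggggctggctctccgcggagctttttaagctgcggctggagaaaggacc
*Orai1*, chr5:123014824-123015073, plus strand: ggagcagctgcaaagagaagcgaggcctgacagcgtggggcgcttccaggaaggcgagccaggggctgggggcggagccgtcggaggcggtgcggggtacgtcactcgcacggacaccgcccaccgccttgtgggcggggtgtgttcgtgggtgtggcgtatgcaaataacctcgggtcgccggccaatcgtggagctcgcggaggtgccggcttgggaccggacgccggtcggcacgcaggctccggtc
*Stim1*, chr7:102267569-102267818, plus strand: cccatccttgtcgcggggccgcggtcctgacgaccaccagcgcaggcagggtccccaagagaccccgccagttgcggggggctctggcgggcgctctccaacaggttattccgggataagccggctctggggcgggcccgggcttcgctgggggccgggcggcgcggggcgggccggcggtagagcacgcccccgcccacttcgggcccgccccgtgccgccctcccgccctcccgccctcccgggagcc
The downstream *Rcan1* window held 3 matches on either strand, whereas the upstream *Rcan1* window and those of *Orai1* and *Stim1* held 0. Of the remaining windows, the one of *Ppp3cb* and 1 of the 2 of *Nfatc2* held 3, and the other *Nfatc2* window and 1 of the 2 *Nfatc3* windows held 1. Among 32851 promoter windows of the same length, 55.6% held at least 1 match and 6.39% held 3 or more, so the 5 of 9 windows with a match are near the first share, and 3 of 9 held 3 or more. A match is a run of letters and not a measured binding site, and the counts per gene do not separate transcripts of the 2 *Rcan1* starts.

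The levels of the members spanned a wide range, and only 1 of them was close to undetected. Divided by the summed exon length, since levels of different genes can be compared only per length, the median level over the 16 libraries was highest for the channel *Orai1* (21.9 CPM per kilobase), followed by the calcineurin catalytic subunits *Ppp3ca* (13.5) and *Ppp3cb* (11.6). The transcription factors *Nfatc1* (3.08) and *Nfatc3* (2.78) came next, then the calcium sensor *Stim1* (1.93), *Nfatc2* (0.604) and *Rcan1* (0.0252). *Ppp3cb* was above *Nfatc1* in 16 of 16 libraries, so the calcineurin subunits and the NFAT factors formed separate tiers. The order within tiers was less firm, because *Orai1* was above *Ppp3ca* in 12 libraries, *Ppp3ca* above *Ppp3cb* in 11, and *Nfatc1* above *Nfatc3* in only 7 of 16. *Stim1* was above *Nfatc2* in 15 libraries, and *Nfatc2* above *Rcan1* in 13. The plot of levels by library shows each of these values.

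**Figure D1:**
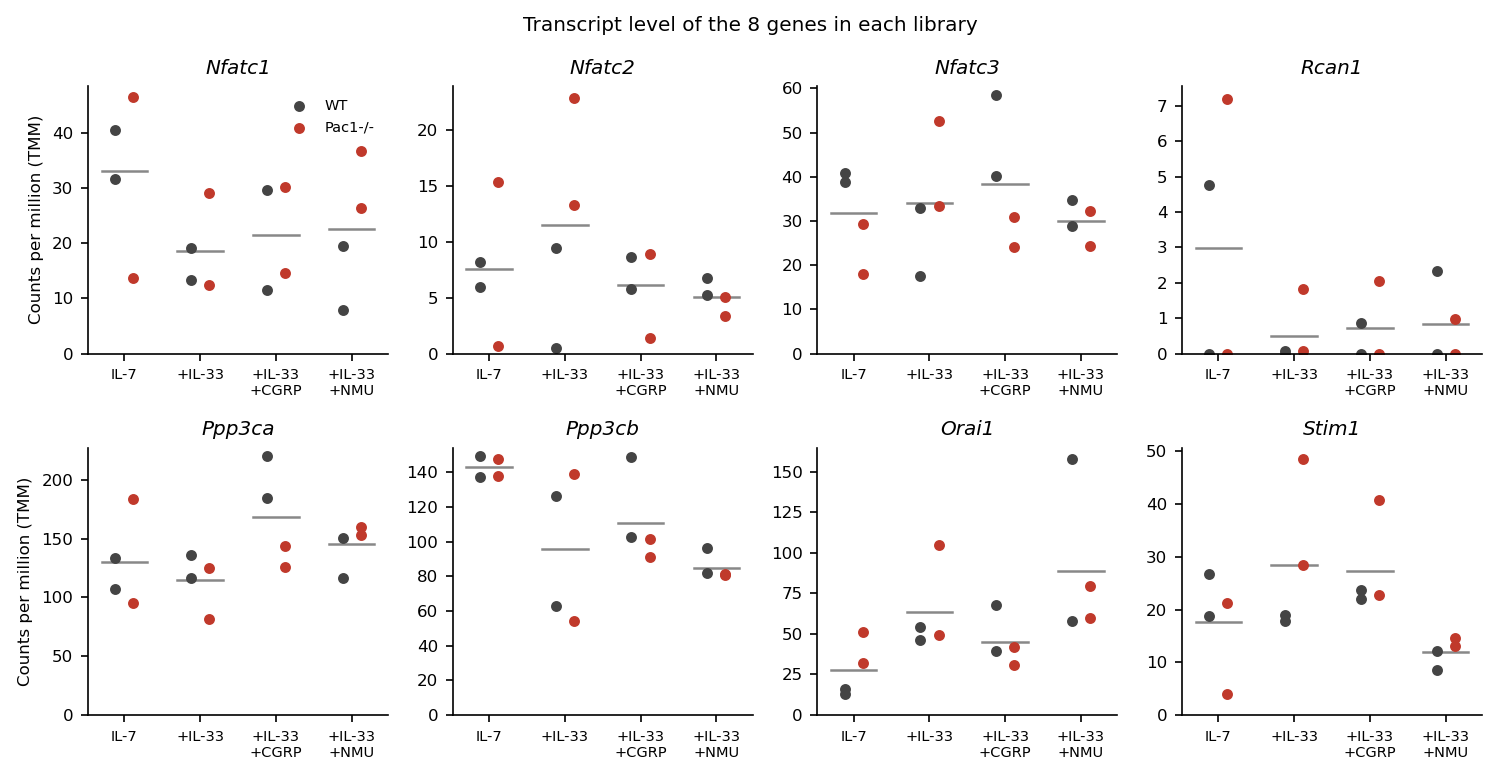
Each panel gives 1 gene, with TMM-scaled CPM from 0 on the y axis and the 4 treatments on the x axis. Points are libraries (gray, WT; red, *Pac1-/-*) and horizontal lines are means of 4 libraries; the *Stim1* points of the NMU libraries, 8.46 to 14.5 CPM, lie below all those of the IL-33 and CGRP libraries.

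The 8 genes also differed in how well replicates matched. The median fold between the 2 libraries of a group, with 0.5 CPM added to each value, was 1.14 for *Ppp3cb*, 1.22 for *Ppp3ca* and 1.38 for *Nfatc3*, the steadiest members. It was 1.41 for *Stim1*, 1.46 for *Orai1* and 1.57 for *Nfatc2*, and 2.15 for *Nfatc1* and 4.52 for *Rcan1*. *Nfatc2* differed by up to 13.98-fold within a group. The calls below have to be read against this spread.

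None of the 8 members passed the cutoff (fold change above 1.5 and adjusted *P* below 0.05, edgeR quasi-likelihood fit of 14979 genes over all libraries) in any of 12 comparisons. Over all genes tested, the share that passed was 0.0334% (IL-33 against IL-7), 2.76% (CGRP against IL-33), 0.187% (NMU against IL-33) and 5.47% (NMU against CGRP). It was 0.113% for *Pac1-/-* against WT averaged over treatments, and 0.00668%, 0.00668%, 0.107% and 0.02% for that contrast within IL-7, IL-33, CGRP and NMU. It was 0% for each of the 3 interactions of genotype with IL-33, CGRP and NMU. With shares this low, 0 of 8 is near the background in each comparison. At an unadjusted *P* below 0.05, 1 member passed in each of the IL-33, CGRP and NMU comparisons, where 9.88%, 16.7% and 6.5% of all genes did, and 2 passed between NMU and CGRP, where 20.3% did. For genotype, 0 members passed over all treatments (background 6.77%), 1 within IL-7 (4.45%), and 0 within IL-33 (3.69%), CGRP (7.8%) and NMU (3.29%). For the interactions, 0 passed with IL-33 (4.85%), 1 with CGRP (6.04%) and 0 with NMU (5.43%). The comparisons with IL-33 share the IL-33 libraries. DESeq2 called 1 member in 1 comparison, *Orai1* with IL-33, and 0 in the others.

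*Orai1* encodes the pore of the calcium channel that is opened by empty stores and lies at chr5:123015074-123030456 on the plus strand of mm10. In the IL-7 libraries it measured 16.25 and 12.9 CPM (WT) and 32.1 and 50.9 CPM (*Pac1-/-*). In the IL-33 libraries it measured 54.05 and 46.5 CPM (WT) and 105 and 49.5 CPM (*Pac1-/-*). Only 1 IL-7 library, a *Pac1-/-* one, reached the range of the IL-33 libraries, so the 2 treatments overlapped through that library. The fitted level was higher with IL-33 (log2 fold change 1.34, SE 0.38, 95% interval 0.52 to 2.16, unadjusted *P* = 0.00377), and it did not pass after adjustment over all genes (adjusted *P* = 0.337). DESeq2 gave a log2 fold change of 1.33 with an adjusted *P* of 0.0358, and over all 23 alternatives the log2 fold change stayed between 1.02 and 1.52 and the adjusted *P* between 0.0358 and 0.823. In the CGRP libraries *Orai1* measured 67.9 and 39.2 CPM (WT) and 41.6 and 30.8 CPM (*Pac1-/-*). In the NMU libraries it measured 58.0 and 158 CPM (WT) and 60.0 and 79.3 CPM (*Pac1-/-*). The highest of these, the second WT NMU library, is 1 of the 2 with epithelial and macrophage markers. Against IL-33, the log2 fold change was -0.50 (SE 0.37) with CGRP and 0.48 (SE 0.37) with NMU, with adjusted *P* values of 0.549 and 0.927. Without the *Pac1-/-* CGRP and WT NMU libraries these became 0.09 and -0.15, so neither direction held. The difference between NMU and CGRP was 0.97 (SE 0.38, unadjusted *P* = 0.0227, adjusted *P* = 0.169). Within IL-7, *Pac1-/-* libraries were above WT libraries (log2 fold change 1.51, SE 0.54, unadjusted *P* = 0.0156), with an adjusted *P* of 0.891.

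*Stim1*, which encodes the sensor of calcium in the endoplasmic reticulum and lies at chr7:102267806-102437319 on the plus strand, was the only member without overlap in the 4 treatment comparisons made (IL-33 against IL-7, CGRP and NMU each against IL-33, and NMU against CGRP). Its level in the NMU libraries was 8.46 and 12.1 CPM (WT) and 14.5 and 13.05 CPM (*Pac1-/-*). In the IL-33 libraries it was 18.9 and 17.8 CPM (WT) and 28.55 and 48.5 CPM (*Pac1-/-*). In the CGRP libraries it was 22.1 and 23.7 CPM (WT) and 22.8 and 40.7 CPM (*Pac1-/-*). All 4 NMU libraries therefore lay below all 4 IL-33 libraries and below all 4 CGRP libraries. Such a separation was found for 4.35% of all genes between NMU and IL-33 and for 13.3% between NMU and CGRP, so 1 of 8 members is above the first share and near the second, and 0 members separated between IL-33 and IL-7 (5.23% of genes) or CGRP and IL-33 (9.71%). The log2 fold change of *Stim1* with NMU was -1.16 against IL-33 (SE 0.52, 95% interval -2.27 to -0.04, unadjusted *P* = 0.0433, adjusted *P* = 0.754) and -1.18 against CGRP (SE 0.52, unadjusted *P* = 0.0404, adjusted *P* = 0.228). Against IL-33 it ranged from -1.48 to -0.93 over 23 alternatives, none of which passed, with adjusted *P* values of 0.363 or more. It was -1.48 for *Pac1-/-* ILC2s alone, without the WT NMU libraries. In the IL-7 libraries *Stim1* measured 18.7 and 26.7 CPM (WT) and 4.01 and 21.2 CPM (*Pac1-/-*), a range that held that of the NMU libraries. The level of 4.01 CPM, in a *Pac1-/-* library, was the lowest of the 16. With IL-33 against IL-7 the log2 fold change was 0.65 (SE 0.51, adjusted *P* = 0.746), and with CGRP against IL-33 it was 0.02 (SE 0.51).

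*Ppp3ca* and *Ppp3cb* encode the alternative catalytic subunits of calcineurin. *Ppp3ca*, at chr3:136670124-136937727 on the plus strand, averaged 130 ± 39.3 CPM with IL-7, 115 ± 23.7 with IL-33, 169 ± 42.6 with CGRP and 145 ± 19.4 with NMU (mean ± SD, n = 4 libraries each). The CGRP libraries measured 185 and 221 CPM (WT) and 126 and 143 CPM (*Pac1-/-*), against 116 and 136 CPM (WT) and 81.3 and 125 CPM (*Pac1-/-*) with IL-33. The lowest CGRP library lay below the highest IL-33 library, so the groups overlapped. The log2 fold change with CGRP was 0.54 (SE 0.24, 95% interval 0.02 to 1.05, unadjusted *P* = 0.0443), with an adjusted *P* of 0.284 and a range of 0.132 to 0.728 over the alternatives. With NMU against IL-33 it was 0.34 (SE 0.24, adjusted *P* = 0.880) and with IL-33 against IL-7 it was -0.18 (SE 0.24, adjusted *P* = 0.941).

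*Ppp3cb*, at chr14:20499364-20546573 on the minus strand, was tightest in the IL-7 libraries, with 137 and 149 CPM (WT) and 138 and 147 CPM (*Pac1-/-*). In the IL-33 libraries it split into 62.9 and 126 CPM (WT) and 54.4 and 139 CPM (*Pac1-/-*). One library of each genotype was thus low and the other near the IL-7 level. With NMU all 4 libraries were between 80.9 and 96.0 CPM, and with CGRP they were between 90.9 and 149 CPM. The log2 fold change with IL-33 was -0.58 (SE 0.30, adjusted *P* = 0.558), and against IL-33 it was 0.20 (SE 0.30) with CGRP and -0.17 (SE 0.30) with NMU. The interval of *Ppp3cb* lay within a 2-fold change in either direction in both neuropeptide comparisons, and that of *Ppp3ca* did so for IL-33 and for NMU, so a larger change of these subunits is outside the 95% intervals there.

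None of the 3 NFAT transcription factors passed the cutoff in any of the 12 comparisons. *Nfatc1*, on chromosome 18, averaged 33.1 ± 14.3 CPM with IL-7, 18.5 ± 7.66 with IL-33, 21.6 ± 9.82 with CGRP and 22.6 ± 12.1 with NMU (mean ± SD, n = 4). Its lowest IL-7 value, 13.7 CPM in a *Pac1-/-* library, fell inside the range of the IL-33 libraries, and the other 3 were above that range. The log2 fold change with IL-33 was -0.84 (SE 0.55, adjusted *P* = 0.656). In the NMU libraries *Nfatc1* measured 7.85 and 19.5 CPM (WT) and 26.5 and 36.7 CPM (*Pac1-/-*), and both *Pac1-/-* values were above both WT values. This difference within NMU had a log2 fold change of 1.21 (SE 0.78, unadjusted *P* = 0.147) and did not pass. In the CGRP libraries the 2 values of each genotype were interleaved, with 11.6 and 29.7 CPM (WT) and 30.3 and 14.7 CPM (*Pac1-/-*). Against IL-33 the log2 fold change of *Nfatc1* was 0.23 (SE 0.54) with CGRP and 0.18 (SE 0.54) with NMU. *Nfatc3*, at chr8:106058840-106130537 on the plus strand, averaged 31.8 ± 10.5 CPM with IL-7, 34.2 ± 14.3 with IL-33, 38.4 ± 14.9 with CGRP and 30.1 ± 4.48 with NMU. Its log2 fold changes in these 3 comparisons were 0.10, 0.16 and -0.14 (SE 0.36 each), and each interval lay within a 2-fold change. Reads of *Nfatc3* may include some of *Esrp2*, which overlaps 219 bases of its exons on the opposite strand, since the use of strand in counting is not given in the sources used here. *Nfatc2*, at chr2:168476410-168601657 on the minus strand, was the lowest NFAT factor per kilobase in every library except 1 *Pac1-/-* IL-33 library, where *Nfatc1* was lower, and measured 0.50 to 22.9 CPM with a median of 6.39 CPM. It measured 0.50, 0.633 and 1.42 CPM in 1 WT IL-33, 1 *Pac1-/-* IL-7 and 1 *Pac1-/-* CGRP library, whose partners in the same groups measured 9.44, 15.3 and 8.89 CPM. The SE of its log2 fold changes was 1.03 in the IL-33, CGRP and NMU comparisons, so a 2-fold change could not have been detected.

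*Rcan1*, which encodes the inhibitor of calcineurin and is itself a known NFAT target, lies at chr16:92391953-92470867 on the minus strand and was near the floor of detection. It had 0 counts in 7 of 16 libraries and 3 or fewer in 9. In the IL-7 libraries it measured 0 and 4.76 CPM (WT) and 0 and 7.20 CPM (*Pac1-/-*). In the IL-33 libraries it measured 0.07 and 0 CPM (WT) and 1.82 and 0.08 CPM (*Pac1-/-*). These were the highest and the lowest treatments, but the IL-7 group held both 0 and the 2 highest values of all. In the CGRP libraries it measured 0 and 0.88 CPM (WT) and 0 and 2.06 CPM (*Pac1-/-*), and in the NMU libraries 0 and 2.34 CPM (WT) and 0 and 0.99 CPM (*Pac1-/-*). Within each of the IL-7, CGRP and NMU groups the first library was at 0 and the second at 8 to 91 counts, so the spread within groups was as wide as any between treatments. It followed the replicate number there. In the IL-33 groups the first library was the higher, with 1 and 0 counts (WT) and 32 and 1 counts (*Pac1-/-*). With the replicate number as a block, the fold changes of *Rcan1* with IL-33, CGRP and NMU changed sign, as given below. The log2 fold change with NMU against IL-33 was 1.81 with an SE of 2.35, and no call could be made from it.

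**Figure D2:**
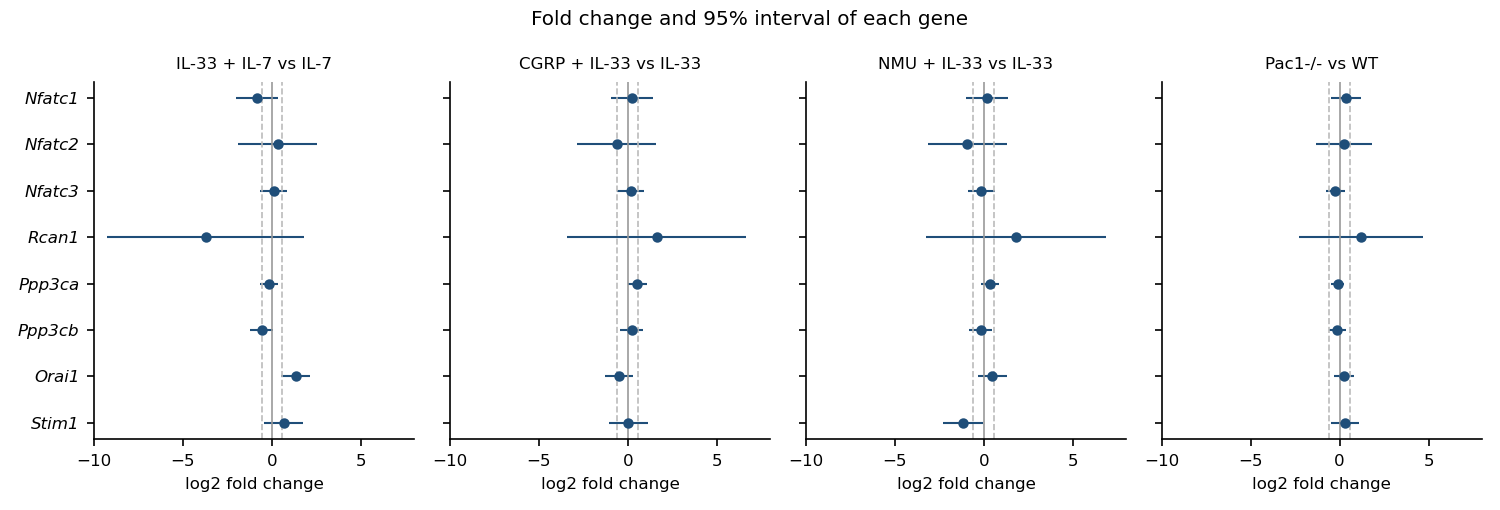
Points are log2 fold changes from the edgeR fit with their 95% intervals on the x axis, 1 panel for each comparison and 1 row for each gene; dashed lines mark a 1.5-fold change. No gene passed the cutoff, *Rcan1* has the widest intervals, and those of *Ppp3ca* and *Ppp3cb* lie between the dashed lines for *Pac1-/-* against WT.

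Loss of PAC1 was compared over all treatments, which gives 8 libraries for each genotype. *Ppp3ca* averaged 146 ± 39.0 CPM (WT) and 134 ± 33.8 CPM (*Pac1-/-*), and *Ppp3cb* 113 ± 32.1 and 104 ± 33.7 CPM (mean ± SD). Their log2 fold changes were -0.11 (SE 0.17, 95% interval -0.47 to 0.26) and -0.12 (SE 0.21, 95% interval -0.58 to 0.33), and both intervals lay within a 1.5-fold change. Those of *Nfatc3* (-0.25, SE 0.25) and *Orai1* (0.23, SE 0.26) lay within a 2-fold change. The values were 0.36 (SE 0.39) for *Nfatc1*, 0.25 (SE 0.73) for *Nfatc2*, 0.28 (SE 0.36) for *Stim1* and 1.21 (SE 1.62) for *Rcan1*, whose intervals were wider. The median over the 8 members was 0.24, against 0.04 over all genes. Within single treatments, where 2 libraries stood against 2, the intervals were wider, and the only member whose interval left out 0 was *Orai1* with IL-7, described above. With IL-33, 7 of 8 members had a positive value and the median was 0.69, against 0.03 over all genes, and with CGRP 3 of 8 were positive and the median was -0.44, against 0.06. With IL-33 the largest value of a member detected in every library was that of *Nfatc2* (1.86, SE 1.49, adjusted *P* = 0.964), followed by *Stim1* (1.07, SE 0.73, adjusted *P* = 0.950). In the IL-33 libraries both *Pac1-/-* values of *Stim1*, *Nfatc2*, *Nfatc3* and *Rcan1* were above both WT values, with *Rcan1* at or under the floor in 3 of these 4 libraries. With CGRP the largest in size among members detected in every library was that of *Nfatc3* (-0.84, SE 0.51, adjusted *P* = 0.645), followed by *Ppp3ca* (-0.59, SE 0.34, adjusted *P* = 0.645). Both WT values of these 2 genes and of *Ppp3cb* were above both *Pac1-/-* values with CGRP. With NMU both *Pac1-/-* values were above both WT values for *Nfatc1*, *Stim1* and *Ppp3ca*, and below them for *Nfatc2* and *Ppp3cb*. With IL-7 they were above for *Orai1* and below for *Nfatc3*. The share of all genes that separate in this way, 2 libraries against 2, was not computed, so no conclusion is drawn from these separations. The same 4 *Pac1-/-* and WT libraries enter all 8 values of a treatment. In the interaction with CGRP, which asks whether CGRP acted differently on *Pac1-/-* than on WT ILC2s, all 8 values were negative and their median was -0.89, against 0.08 over all genes. These 8 values come from the same libraries and are not 8 observations. The lowest *P* among them was that of *Nfatc3* (-1.60, SE 0.72, unadjusted *P* = 0.0430), with an adjusted *P* of 0.807. A negative median was not particular to CGRP. In the interaction with NMU 2 of 8 values were positive and the median was -0.79, against -0.16 over all genes. In that with IL-33 6 of 8 were positive and the median was 1.07, against 0.05. Each interaction contains the genotype difference within IL-33, whose median was 0.69, so they are not separate results. *Nfatc3* measured 40.1 and 58.5 CPM (WT) and 24.2 and 30.8 CPM (*Pac1-/-*) with CGRP, against 17.6 and 33.01 CPM (WT) and 33.4 and 52.6 CPM (*Pac1-/-*) with IL-33. The WT libraries were thus the higher with CGRP and the *Pac1-/-* libraries with IL-33, and the *Pac1-/-* CGRP libraries are those with B cell markers.

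The balance between related members was examined as a share of their summed counts per kilobase. Of the NFAT total, *Nfatc1* took 24.98% to 67.6% over the 16 libraries (median 41.9%), *Nfatc3* 16.7% to 61.5% (median 44.6%) and *Nfatc2* 1.02% to 32.4% (median 9.75%). *Nfatc1* was above 50% in 6 libraries, *Nfatc3* in 5 and *Nfatc2* in 0, so no single factor led throughout. *Ppp3ca* took 37.9% to 63.5% of the calcineurin pair and was the larger part in 11 of 16 libraries. With IL-7 it took 40.8% and 44.1% in WT and 37.9% and 52.4% in *Pac1-/-* ILC2s, while with NMU it took 58.1% and 55.7% in WT and 63.5% and 62.5% in *Pac1-/-* ILC2s. With CGRP it took 61.3% and 56.7% in WT and 54.97% and 55.6% in *Pac1-/-* ILC2s. *Ppp3ca* was thus the larger part in all 4 NMU and all 4 CGRP libraries, in 2 IL-33 libraries and in 1 IL-7 library, and the NMU and CGRP libraries were not tested against those with IL-7. Against IL-33, the *Ppp3ca* share was 6.99 percentage points higher with NMU (*P* = 0.171, adjusted *P* = 0.686, two-sided exact permutation test). With IL-33 against IL-7, it was 9.20 points higher (*P* = 0.143, adjusted *P* = 0.686, same exact test). The *Nfatc1* share was 38.9% ± 10.9 with IL-33 and 54.4% ± 11.1 with IL-7, a difference of -15.5 points (*P* = 0.114, adjusted *P* = 0.686, exact permutation test of 4 against 4 libraries). None of the 16 differences in share passed after adjustment, and the smallest *P* that 4 against 4 libraries allow is 0.0286. Between genotypes the *Ppp3ca* share was 53.5% in *Pac1-/-* and 53.4% in WT ILC2s (difference 0.08 points, *P* = 0.984, exact permutation test).

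**Figure D3:**
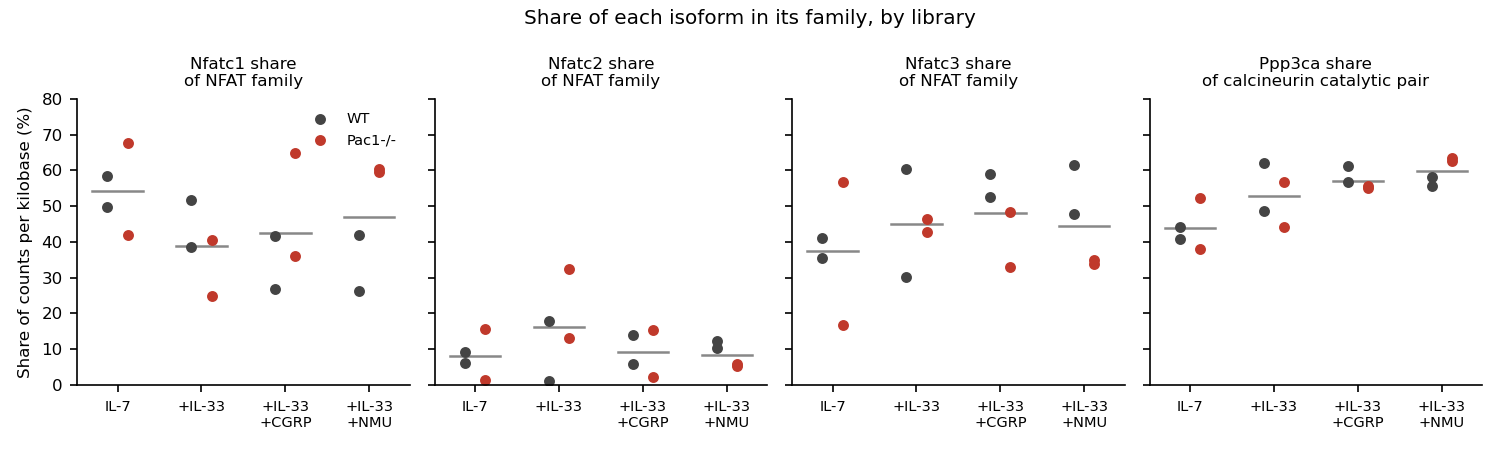
The y axis is the share of each gene in the summed counts per kilobase of its family, in percent, with the treatments on the x axis. Points are libraries (gray, WT; red, *Pac1-/-*) and lines are means of 4; the *Ppp3ca* share is above 50% in all 4 NMU and all 4 CGRP libraries, in 2 of the 4 IL-33 and in 1 of the 4 IL-7 libraries.

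The other genes of the calcium pathway were taken from 4 lists: calcium entry and stores, calcineurin and calmodulin, other NFAT proteins and NFAT regulators, and the NMU receptor with phospholipase C. Of their 44 genes 40 were tested, and 0 passed with IL-33 against IL-7 or with NMU against IL-33. With CGRP against IL-33, 2 rose and 1 fell, and between NMU and CGRP 1 was higher and 2 lower with NMU. These 3 of 40 stand beside 2.76% of all genes in the first comparison and 5.47% in the second. All of these were the same 3 genes. *Itpr1*, which encodes a receptor for inositol trisphosphate that releases calcium from the endoplasmic reticulum, measured 11.2 to 21.9 CPM with IL-33 and 69.4 to 174 CPM with CGRP. The ranges did not overlap, and the log2 fold change was 2.96 (SE 0.48, adjusted *P* = 0.00561). *Itpr2*, its relative, measured 19.4 to 43.6 CPM with IL-33 and 69.3 to 147 CPM with CGRP (log2 fold change 1.78, SE 0.33, adjusted *P* = 0.0110). With NMU, *Itpr1* measured 8.35 to 34.1 CPM and *Itpr2* 20.9 to 39.7 CPM, so both were lower than with CGRP (log2 fold changes -2.62 and -1.91, adjusted *P* = 0.00646 and 0.00432). *Fkbp1a*, which encodes the protein through which the drug FK506 blocks calcineurin, measured 173 to 292 CPM with IL-33 and 63.6 to 143 CPM with CGRP (log2 fold change -1.25, SE 0.29, adjusted *P* = 0.0374). With the replicate number as a block in the edgeR fit, *Fkbp1a* did not pass (adjusted *P* = 0.0509). In the edgeR fit of only the libraries of CGRP against IL-33, neither *Fkbp1a* (adjusted *P* = 0.150) nor *Itpr2* (adjusted *P* = 0.0557) passed. In WT ILC2s alone, without the *Pac1-/-* CGRP libraries, 0 of the 3 passed for CGRP against IL-33, with log2 fold changes of 2.70, 1.52 and -1.14 and adjusted *P* values of 0.140, 0.309 and 0.338. Without the first WT IL-33 library the count was also 0. In the 2 WT CGRP libraries, where the B cell markers summed to 0.62 and 16.2 CPM and *Cpa3* was at its highest, *Itpr1* measured 172 and 69.4 CPM. In the *Pac1-/-* CGRP libraries it measured 110 and 174 CPM. The part of these markers in the result was not tested.

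The NMU receptor and its phospholipase C arm did not pass in any of the 12 comparisons. *Ppp3r1*, which encodes the regulatory subunit of calcineurin, measured 25.3 to 107 CPM over all libraries and did not pass either. *Nmur1*, the receptor of NMU on ILC2s, was low, at 0 to 16.3 CPM with a median of 2.87 CPM and 0 counts in 2 libraries. The medians of the 4 lists for NMU against IL-33 were 0.11, -0.10, -0.27 and 0.33, in the order above, against -0.08 over all genes.

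Some genes of a list known as NFAT targets in lymphocytes passed the cutoff with both neuropeptides. The list was drawn up with earlier results of these data known. Its counts are therefore not independent evidence of a direction, of an excess over all genes or of a contrast with the members. Of 20 genes 17 were tested, and 0 passed with IL-33 against IL-7. With NMU against IL-33, 6 of the 17 rose and 0 fell, where 0.187% of all genes passed, and the median log2 fold change of the list was 1.47, against -0.08 over all genes. With CGRP against IL-33, where 2.76% of all genes passed, 7 rose and 2 fell, with a median of 1.35, against -0.09 over all genes. The 6 that rose with NMU were all cytokine genes. The type 2 cytokine *Il5* measured 14977 to 27479 CPM with NMU against 5183 to 7616 CPM with IL-33 (log2 fold change 1.61, SE 0.14, adjusted *P* = 1.37e-04). *Il13*, which drives mucus and airway reactivity, measured 115 to 347 CPM against 18.7 to 38.6 CPM (2.78, SE 0.44, adjusted *P* = 0.0244). *Il4* rose by 3.21 (SE 0.35), *Il2* by 5.10 (SE 0.54) and *Csf2*, which encodes GM-CSF, by 1.47 (SE 0.23) on the log2 scale. These fold changes average the genotypes, which were not alike for *Csf2* and *Il3*. In WT ILC2s *Csf2* overlapped, at 1080 and 1686 CPM with IL-33 and 1880 and 1055 CPM with NMU. In *Pac1-/-* ILC2s it measured 780 and 629 CPM with IL-33 and 6402 and 3865 CPM with NMU. *Il3* had 1 count in each WT NMU library, under the floor.

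*Il3* had 0 counts in all IL-7 and IL-33 libraries. With CGRP it measured 133 and 116 CPM (WT) and 79.1 and 33.1 CPM (*Pac1-/-*), and the mean of these 4, 90.2 ± 44.1 CPM (SD), was at least 384.5-fold higher than the floor of 3 counts per IL-33 library. With NMU it measured 0.15 and 0.11 CPM in WT, 1 count in each library, and 77.3 and 54.2 CPM in *Pac1-/-* ILC2s. The ratio of *Pac1-/-* to WT ILC2s with NMU was 506, with a counting interval of 140 to 4184 (95%, exact, counting error only), and *Il3* was the only gene of the 5 lists to pass between genotypes (adjusted *P* = 0.0237, within NMU). The call was lost when any 1 of the 4 NMU or the 2 WT CGRP libraries was left out, while the log2 fold change stayed between 8.58 and 9.07 with any 1 of the 16 left out. The WT NMU libraries are those with epithelial and macrophage markers. Other NFAT target genes had higher values in the *Pac1-/-* than in the WT NMU libraries without passing, such as *Csf2* (1880 and 1055 CPM for WT, 6402 and 3865 CPM for *Pac1-/-*) and *Il13* (115 and 140 CPM for WT, 347 and 301 CPM for *Pac1-/-*). These 2 were chosen after their values were seen.

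With CGRP the list moved in another pattern. *Il2* rose from 2.20 to 6.02 CPM with IL-33 to 224 to 297 CPM with CGRP (log2 fold change 6.34, SE 0.57, adjusted *P* = 6.5e-05), and *Il4* rose from 5.90 to 11.3 CPM to 86.7 to 145 CPM (3.66, SE 0.35). The activation marker *Cd69* rose by 3.27 (SE 0.30), and the nuclear receptor genes *Nr4a3* and *Nr4a1*, which are early response genes, by 3.04 (SE 0.34) and 1.58 (SE 0.25), on the log2 scale. The 2 that fell, named because they were only 2, were *Il13* (log2 fold change -1.77, SE 0.43, adjusted *P* = 0.0461) and *Irf4*, a transcription factor gene (-2.12, SE 0.46, adjusted *P* = 0.0265). With 1 library left out in turn, *Il13* no longer passed in 13 of 16 fits (log2 fold changes of -2.10 to -1.54) and *Irf4* in 6 of 16 (-2.68 to -1.80). With only the libraries of the comparison neither passed (adjusted *P* = 0.184 for *Il13* and 0.165 for *Irf4*), and with the replicate block *Il13* did not (0.0646). Between NMU and CGRP, where 5.47% of all genes passed, 3 genes were higher with NMU and 3 lower. *Il13*, *Irf4* and *Il5* were higher with NMU by 4.55 (SE 0.48), 3.95 (SE 0.49) and 1.07 (SE 0.14), and *Cd69*, *Nr4a3* and *Il3* were lower, with log2 fold changes of -2.30 (SE 0.29), -2.06 (SE 0.33) and, for *Il3*, -4.78 (SE 0.54). The *Il3* value averages unlike genotypes. WT ILC2s measured 0.15 and 0.11 CPM with NMU and 133 and 116 CPM with CGRP. In *Pac1-/-* ILC2s the treatments overlapped, at 77.3 and 54.2 CPM with NMU and 79.1 and 33.1 CPM with CGRP. In *Pac1-/-* ILC2s alone for NMU and WT ILC2s alone for CGRP, 5 genes passed in each comparison. For NMU these were *Csf2*, *Il2*, *Il3*, *Il4* and *Il5*, and for CGRP *Cd69*, *Il2*, *Il3*, *Il4* and *Nr4a3*. Of those that no longer passed, *Il13* with NMU had a log2 fold change of 3.19 (adjusted *P* = 0.170). With CGRP these were *Nr4a1* (1.81, adjusted *P* = 0.0738), *Irf4* (-2.04, adjusted *P* = 0.141), *Il13* (-1.21, adjusted *P* = 0.538) and *Csf2* (0.57, adjusted *P* = 0.526). The count of 6 with NMU was 3 when any 1 of 4 libraries was left out, the first WT IL-33, the second *Pac1-/-* IL-33, the first WT NMU or the first *Pac1-/-* NMU library. The log2 fold changes then stayed between 2.63 and 2.98 for *Il13*, 1.24 and 1.65 for *Csf2* and 7.95 and 8.22 for *Il3*, over all 16 libraries left out in turn. In the edgeR fit of only the libraries of NMU against IL-33, *Il3* and *Csf2* did not pass. Their log2 fold changes there were 8.11 (adjusted *P* = 0.0761) and 1.48 (adjusted *P* = 0.159).

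**Figure D4:**
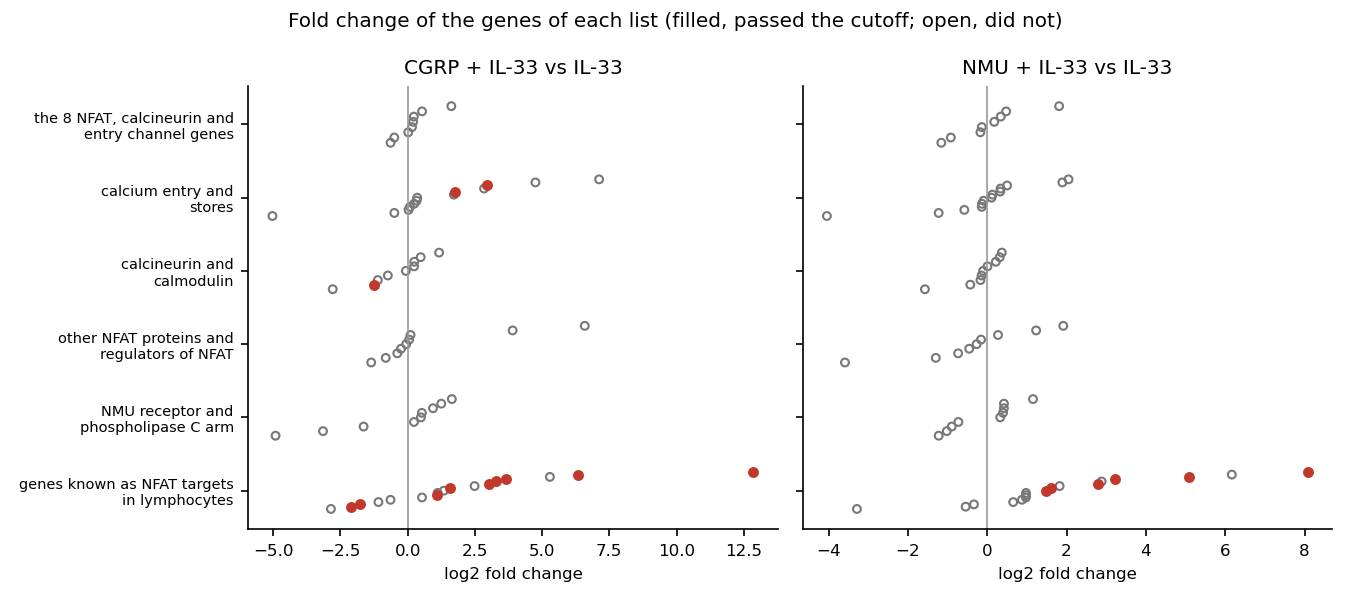
The x axis is the log2 fold change from the edgeR fit against IL-33, for CGRP (left) and NMU (right), and each row is the set of 8 genes or 1 list; filled red points passed the cutoff and open points did not. None of the 8 genes is filled, and 9 and 6 genes of the NFAT target list are; the rightmost point in each panel is *Il3*, whose fitted value depends on the prior count because it had 0 counts with IL-33.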

How the data were processed

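Bulk mRNA-Seq of lung ILC2s was analysed for 16 libraries in 8 groups of 2. The authors amplified full-length cDNA from about 500 lysed cells, sequenced paired reads of 150 bases on a NovaSeq instrument, aligned them to mm10 with HISAT2 and deposited raw counts per Ensembl gene, without normalization. The counter, annotation, use of strand and handling of duplicates are not given in the sources used here, and no molecular identifiers are described. Gene symbols, positions and exon lengths were taken from GENCODE M21 for the same build (51719 of 51912 genes matched).

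Counts were fitted with edgeR 4.0.16 (R 4.3.3): TMM scaling, filterByExpr by group (14979 genes kept), a quasi-likelihood fit of the 8 group means over all 16 libraries without a replicate block, and Benjamini-Hochberg adjustment over all genes tested in each of 12 comparisons. A gene passed at a fold change above 1.5 and an adjusted *P* below 0.05. All 8 members were tested, and 0 members were dropped by the filter. Fitted fold changes used a prior count, and levels are TMM-scaled CPM. Shares between related genes were tested with two-sided exact permutation tests in scipy 1.17.1, adjusted over 16 tests. Data were simulated for NMU against IL-33 (13913 genes, 100 changed by 2-fold and 100 by 4-fold). Counts were drawn with the dispersions of the edgeR fit and equal means in all groups, except for changed genes, picked above a minimum mean count. There edgeR recovered 2% and 32% of the changed genes, with 8.11% of calls false. DESeq2 1.42.0 recovered 16% and 51%, with 55.3% of calls false. Because the simulation rests on the edgeR fit, these rates cannot rank the 2 methods. The alternatives were RLE scaling, DESeq2, all genes with any count, genes with 10 or more counts throughout, adjusted *P* alone, the replicate number as a block, only the libraries of the comparison, and each library left out in turn. Leaving out the *Pac1-/-* CGRP and WT NMU libraries together was added after the marker genes had been seen.

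The members and gene lists were chosen with earlier results of these data known. Of the listed genes, 2 are not reported here and stayed out of the list counts, medians and sums. Named were all members, *Dusp2*, and from each pathway list at most 6 genes that passed in a comparison, by smallest *P*. Genes like a member in pattern were to be named only for members that passed, and 0 did. The 7 list genes that were not tested for low counts were *Rcan2*, *Ryr1*, *Ifng*, *Egr3*, *Ctla4*, *Nfatc4* and *Nron*. The single-cell and ATAC-Seq experiments of the study were not analysed here.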

Additional observations from a re-analysis of the deposited data

Results flagged for a closer look

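In groups of 4 libraries that shared a treatment, 4 of 32 member and treatment sets held 1 library set far apart from the other 3 (Dixon's ratio above 0.829). For independent values from 1 normal distribution, chance alone gives about 1 in 20 such sets. Each set here mixes 2 genotypes, and *Rcan1* was near the floor, so that rate may not apply and no excess is read from the count. *Orai1* was high, at 105 CPM, in the first *Pac1-/-* IL-33 library, where the other 3 IL-33 libraries measured 46.5 to 54.05 CPM. *Rcan1* was high in the same library, at 1.82 CPM, with the other 3 at 0 to 0.08 CPM. *Stim1* was high, at 40.7 CPM, in the second *Pac1-/-* CGRP library, with the other 3 at 22.1 to 23.7 CPM. *Ppp3cb* was high, at 96.0 CPM, in the first WT NMU library, with the other 3 at 80.9 to 81.8 CPM. The second *Pac1-/-* CGRP library is 1 of the 2 with B cell markers, and the first WT NMU library is 1 of the 2 with lung epithelial and macrophage markers; their part in these values was not tested.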

How the results depend on the processing

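Across the alternatives, 0 of 8 members were called in every comparison except for *Orai1* with IL-33, which DESeq2 called (1 member; log2 fold change 1.33, adjusted *P* = 0.0358). Counts over all genes depended far more on the method. DESeq2 called 296 genes for IL-33, 1303 for CGRP, 220 for NMU and 1886 for NMU against CGRP, 134 between genotypes over all treatments, 63, 38, 393 and 47 within IL-7, IL-33, CGRP and NMU, and 20, 131 and 28 for the 3 interactions. With no filter the counts were, in the same order, 199, 845, 116, 1318, 117, 21, 26, 183, 39, 21, 70 and 53. With at least 10 counts in every library, 53 genes were called for NMU and 2 between genotypes within CGRP, and RLE scaling gave 5 within NMU. With only the libraries of the comparison, the counts were 10 for IL-33, 199 for CGRP, 14 for NMU, 525 for NMU against CGRP and 0 between genotypes within CGRP. Without the *Pac1-/-* CGRP and WT NMU libraries, 50 genes were called for CGRP and 15 for NMU.

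With 1 library left out, the counts over all genes ranged from 2 to 8 for IL-33, 130 to 489 for CGRP, 8 to 28 for NMU, 426 to 856 for NMU against CGRP and 4 to 38 between genotypes. They ranged from 1 to 2 within IL-7, 6 to 85 within CGRP and 0 to 4 within NMU, and from 0 to 29 and 0 to 1 for the interactions with CGRP and NMU.

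The pairing of replicate numbers was checked by the correlation of the deviations of same-numbered libraries over 28 pairs of groups. The correlations ran from -0.0641 to 0.039, with 0 pairs above 0.1, so they showed no pairing of the samples by number. They cannot exclude pairing for single genes. *Rcan1* had 0 counts in the first library and 8 to 91 in the second of each IL-7, CGRP and NMU group. In the IL-33 groups its first library was the higher. With the replicate block, 2 genes were called for IL-33 and 10 between genotypes within CGRP. The block reversed *Rcan1*, to 1.18 with IL-33, -2.86 with CGRP and -2.69 with NMU, and it called 0 members.

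For the NFAT target list, DESeq2 called 2 genes with IL-33, 10 with NMU, 1 between genotypes and 3 between genotypes within NMU, and no filter gave 2 with IL-33 and 4 within NMU. Without the *Pac1-/-* CGRP and WT NMU libraries 5 were called with CGRP. With 1 library left out, 3 to 6 were called with NMU and 0 to 1 between genotypes within NMU. For the other 4 lists, DESeq2 called 1 with IL-33, 7 with CGRP, 7 for NMU against CGRP and 1 between genotypes, no filter gave 1 with IL-33 and 5 for NMU against CGRP, the libraries of the comparison alone gave 1 with CGRP, and leaving out the *Pac1-/-* CGRP and WT NMU libraries gave 0 with CGRP. With 1 library left out they ranged from 0 to 4 with CGRP and from 2 to 5 for NMU against CGRP.

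Small fold changes of members changed sign. Without the *Pac1-/-* CGRP and WT NMU libraries, the log2 fold change with CGRP became 0.53 for *Nfatc2* and 0.091 for *Orai1*, and with NMU -0.93 for *Rcan1* and -0.15 for *Orai1*. With no filter that of *Stim1* with CGRP was -0.0021. With 1 library left out, *Nfatc1* ranged from -0.19 to 0.63 with CGRP and from -0.22 to 0.56 with NMU. *Nfatc2* ranged from -1.31 to 2.15 with IL-33, from -1.56 to 1.01 with CGRP, from -1.38 to 0.73 with NMU and from -0.65 to 1.08 between genotypes. *Nfatc3* ranged from -0.16 to 0.30 with IL-33, from -0.032 to 0.42 with CGRP and from -0.33 to 0.12 with NMU. *Rcan1* ranged from -5.42 to 0.43 with IL-33, from -1.66 to 3.31 with CGRP, from -1.56 to 3.49 with NMU and from -0.87 to 3.15 between genotypes. *Ppp3ca* ranged from -0.39 to 0.092 with IL-33. *Ppp3cb* ranged from -0.059 to 0.64 with CGRP, from -0.43 to 0.25 with NMU and from -0.32 to 0.024 between genotypes. *Stim1* ranged from -0.22 to 0.27 with CGRP and from -0.13 to 0.47 between genotypes. The cause of these changes was not tested beyond the samples or genes each alternative leaves out.

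From counts without division by length, the difference in the *Nfatc3* share with NMU was 0.46 percentage points. With 1 library left out, the *Nfatc1* share with CGRP ranged from -3.99 to 8.70 points, the *Nfatc2* share between genotypes from -1.19 to 3.24, the *Nfatc3* share from -1.64 to 8.40 with CGRP and from -6.18 to 4.65 with NMU, and the *Ppp3ca* share between genotypes from -1.72 to 2.31. With 2 libraries a group and fold changes recovered as in the simulation, changes of 2-fold or less were mostly below what this design detects.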

Other observations

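These 4 genes were chosen after their values were seen. Among the genes next to the members in the pathway, *Ppp3cc*, another catalytic subunit of calcineurin that is known mainly from testis, was detected at 0 to 33.3 CPM (median 6.53 CPM), with 0 counts in 2 of 16 libraries. It measured 12.05 to 32.5 CPM with CGRP and 4.10 to 33.3 CPM with IL-33, ranges that overlapped, and passed the cutoff in 0 of the 12 comparisons. *Nfat5*, the NFAT relative that responds to osmotic stress and does not depend on calcineurin, measured 45.1 to 116 CPM over the 16 libraries. *Stim2*, the second calcium sensor, measured 8.27 to 34.8 CPM, and its range with NMU, 13.5 to 31.6 CPM, overlapped that with CGRP, 8.27 to 31.2 CPM. *Atp2b1*, a plasma membrane pump that removes calcium, measured 330 to 395 CPM with NMU and 236 to 277 CPM with IL-33, ranges that did not overlap, without passing the cutoff (log2 fold change 0.50, SE 0.16, adjusted *P* = 0.444).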
